A study of Homo sapiens with 6 samples.

Results

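The transcription factors PHOX2A, ISL1, HAND1, HAND2, GATA2, GATA3 and TBX2, which belong to the regulatory core of noradrenergic neuroblastoma cells, were followed in SH-SY5Y cells, a human neuroblastoma line, exposed to free bilirubin. The 7 genes were chosen by name and found through the gene symbols of the platform annotation. They were represented by 14 of the 22215 probe sets tested, and were 7 of the 11963 genes with a probe set of their own. PHOX2A, ISL1, HAND1 and HAND2 had 1 probe set each, GATA2 and GATA3 had 3 each and TBX2 had 4. Cells were grown for 4 h in medium with unconjugated bilirubin at a free concentration of 140 nM (Bf 140 nM) or in medium with 0.6% DMSO, the solvent of the pigment (DMSO 0.6%). RNA of 3 replicates per treatment was hybridized on Affymetrix oligonucleotide arrays, 6 in all. The labels describe separate flasks for each treatment and independent biological replicates. All 6 arrays came from a single tumour-derived line, so the replicates are cultures and not donors.

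Sympathetic neuroblasts arise from the neural crest, and a small group of transcription factors that bind their own and each other's enhancers holds them in the noradrenergic state. PHOX2A and ISL1 carry homeodomains, HAND1 and HAND2 are basic helix-loop-helix factors, GATA2 and GATA3 are zinc finger factors, and TBX2 is a T-box factor best known as a repressor. Together they keep genes of noradrenaline synthesis and storage active, such as DBH, the enzyme that converts dopamine into noradrenaline. Neuroblastoma cells can also adopt a mesenchymal state with a different set of core factors. Arrays of RNA from whole cultures cannot tell fewer cells of a type from less RNA per cell.

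Values were taken on the log2 scale inferred for the deposited table. Array medians were 7.85 in DMSO 0.6% replicate 3, 7.94 in Bf 140 nM replicate 3 and at least 7.99 on the other 4 arrays. Correlations between arrays were 0.971 to 0.996. The control probe sets for beta-actin set DMSO 0.6% replicate 3 apart. Its difference between the 3' and 5' ends of the transcript was 2.21, against 0.105 to 0.885 on the other 5 arrays, and for GAPDH it was 1.30 against 0.103 to 0.377. A larger difference of this kind marks shorter or less complete labelled RNA, and results are therefore also given without that array where it moves them.

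The noradrenergic label was first set against the levels of the factors on each array. By its brightest probe set, each factor except HAND2 lay above the array median. GATA3 held percentile 98.8 on average over the 6 arrays, ISL1 97.4, GATA2 96.6, PHOX2A 95.6, TBX2 89.4 and HAND1 75.7. HAND2 held percentile 45.7, with a range of 41.3 to 48.7. These positions depend on how well each probe binds as well as on the amount of transcript, so they do not order the factors by abundance, and no detection calls were used here. Probe sets of the same gene lay far apart. The probe sets of TBX2 ran from percentile 18.3 to 89.4, and those of GATA2 from 51.7 to 96.6. In all, 11 of the 14 probe sets exceeded the array median on every array.

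Genes that the noradrenergic factors are known to act on had a median percentile of 95.9 over 20 genes, close to that of the factors themselves (95.6), while the brightest probe sets of all genes had a median percentile of 57.7. DBH stood at percentile 98.2. TH, the rate-limiting enzyme of catecholamine synthesis, stood at percentile 12.1 (range 7.56 to 15.7). SLC18A2, a vesicular monoamine transporter, stood at 19.3, while SLC18A1, a transporter of the same kind, stood at 84.7. Whether the low positions of TH and SLC18A2 come from little transcript or from probes that bind poorly was not tested. Core factors of the mesenchymal state had a median percentile of 46.2 over 17 measured genes, but TWIST1, a helix-loop-helix factor of the neural crest and mesenchyme, held percentile 97.4, and NOTCH2, a receptor of the Notch pathway, held 86.0. The markers of mesenchymal or Schwann-like cells had a median of 61.6 over 10. Among those markers VIM, an intermediate filament protein found in many cultured cells, had the highest position at percentile 99.4, and SOX10, a defining Schwann lineage factor, lay at 45.9. Related factors of the GATA, T-box, homeodomain and helix-loop-helix families outside the noradrenergic core had a median percentile of 25.0 over 17 measured genes. TWIST1, which also belongs to these families, was the highest of them.

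**Figure D1:**
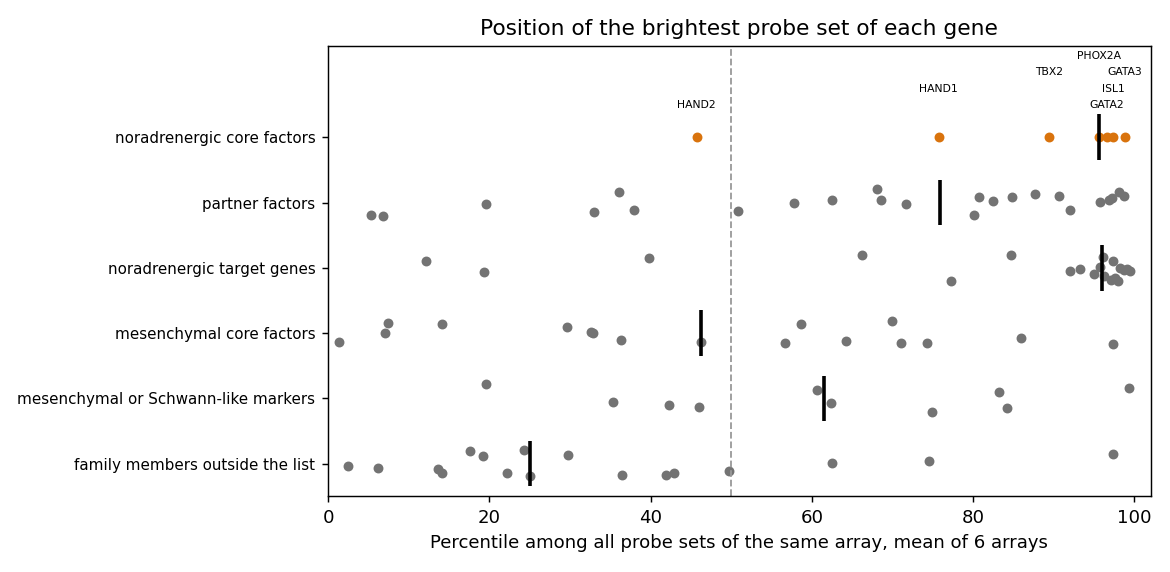
Percentile of the brightest probe set of each gene among all probe sets of the same array, averaged over the 6 arrays (x axis), for the noradrenergic core factors (orange, named) and 5 other gene lists (grey). Black bars mark list medians and the dashed line the array median: 6 of the 7 factors lie to its right, and HAND2 lies to its left at 45.7.

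The sequences before the transcription start are shown for the 4 factors with a single annotated start. Each sequence is the 250 bases upstream of the start in RefSeq on GRCh38.p14, read on the strand of the gene. The windows are chr11:72244177-72244426 on the minus strand for PHOX2A, chr5:154478228-154478477 on the minus strand for HAND1, chr4:173530230-173530479 on the minus strand for HAND2 and chr5:51383198-51383447 on the plus strand for ISL1. Capitals mark GATAA, the core of the site that GATA factors bind, and TAAT, the core of many homeodomain sites, on either strand. The letters of the 2 motifs can overlap.
PHOX2A: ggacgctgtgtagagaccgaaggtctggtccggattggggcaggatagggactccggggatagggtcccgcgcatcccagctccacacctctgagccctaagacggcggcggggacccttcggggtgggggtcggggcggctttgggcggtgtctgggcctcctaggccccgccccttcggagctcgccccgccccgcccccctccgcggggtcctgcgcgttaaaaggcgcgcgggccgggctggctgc
ISL1: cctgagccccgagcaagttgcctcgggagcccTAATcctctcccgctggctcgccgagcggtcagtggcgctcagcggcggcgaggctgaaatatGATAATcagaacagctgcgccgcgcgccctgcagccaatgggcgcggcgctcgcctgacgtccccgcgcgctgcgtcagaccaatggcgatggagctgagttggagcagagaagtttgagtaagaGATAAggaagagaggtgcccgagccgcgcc
HAND1: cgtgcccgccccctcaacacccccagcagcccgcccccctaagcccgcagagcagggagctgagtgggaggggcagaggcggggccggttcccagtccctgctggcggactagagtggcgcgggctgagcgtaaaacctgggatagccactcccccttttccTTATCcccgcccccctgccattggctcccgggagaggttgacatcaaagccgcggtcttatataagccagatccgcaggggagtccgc
HAND2: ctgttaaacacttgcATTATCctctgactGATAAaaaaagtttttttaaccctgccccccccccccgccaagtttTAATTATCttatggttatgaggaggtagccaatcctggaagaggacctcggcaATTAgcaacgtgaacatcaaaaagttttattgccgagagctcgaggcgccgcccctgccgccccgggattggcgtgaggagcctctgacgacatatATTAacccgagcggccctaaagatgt
HAND2 held 3 matches to GATAA and 5 to TAAT, and ISL1 held 2 of each. HAND1 held 1 match to GATAA and none to TAAT, and PHOX2A held neither. GATAA was present in 20.4% and TAAT in 47.4% of all 35116 RefSeq windows of this length. CANNTG, the E-box that helix-loop-helix factors bind, occurred once in HAND2 and once in ISL1 and in 61.8% of all windows, and GGTGTG, a T-box core, occurred once in PHOX2A and in 14.2% of all windows. The share of G and C was 73.2% in PHOX2A, 67.2% in HAND1, 65.2% in ISL1 and 49.6% in HAND2. A match describes the letters of the window and does not show that a factor binds there.

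The comparison of Bf 140 nM with DMSO 0.6% asked whether 4 h of bilirubin altered the transcript levels of these factors. None of the 14 probe sets passed an adjusted p of 0.10 by limma, nor did any of the 22215 (0.0%). At an unadjusted p under 0.05 the count was 0 of 14, against 17 of all probe sets (0.0765%). With the replicate number as a block these counts were again 0 and 0 of 14, against 0.0% and 0.414% of all probe sets. The shares of 0.0765% and 0.414% lie far under the nominal level of 0.05, so the unadjusted p-values ran high. Differences, as Bf 140 nM minus DMSO 0.6%, ran from -0.12 to 0.07 on the log2 scale, with 8 below 0 and 6 above. Of all probe sets 36.8% lay below 0. The median was -0.05 over the 14 and 0.03 over all probe sets. Every 95% confidence interval of the unpaired fit lay within -0.75 and 0.56, and with the replicate number as a block within -0.383 and 0.36. A 2-fold change in either direction was thus outside the interval of each probe set. Smaller changes inside the interval were not distinguishable from none. The groups overlapped for all 14 probe sets, and 2.66% of all probe sets did not overlap, or 2.67% of genes by their brightest probe set. Without DMSO 0.6% replicate 3, the array with the largest beta-actin difference, none was called either. The sign turned for HAND1 (-0.17), HAND2 (-0.10), GATA2 (-0.06) and ISL1 (0.08), and it held for PHOX2A (-0.21), GATA3 (0.19) and TBX2 (-0.07). That fit was unpaired and left Bf 140 nM replicate 3 without its control, so differences between replicate numbers enter it. In the pairs of replicates 1 and 2, ISL1 was lower with bilirubin (-0.05 and -0.19). HAND2 (-0.10 and -0.0049) and GATA2 (-0.03 and -0.17) were lower too, and HAND1 was mixed (-0.29 and 0.04).

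**Figure D2:**
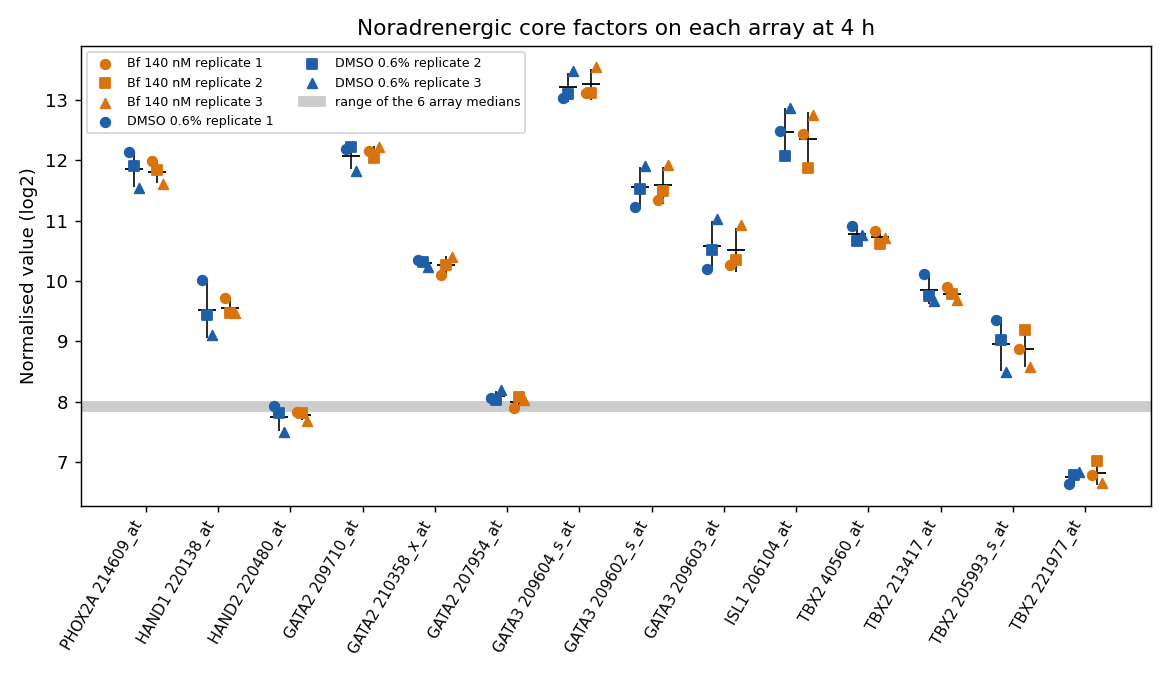
Log2 values of the 14 probe sets (y axis) on the 3 DMSO 0.6% arrays (blue, left) and the 3 Bf 140 nM arrays (orange, right), with the marker shape giving the replicate, black bars the group mean and SD (n = 3) and the grey band the range of array medians. Group means lie close together for every probe set, and those of ISL1, at 12.36 and 12.47, are the farthest apart.

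Of the homeodomain factors, PHOX2A is needed for the noradrenergic identity of autonomic neurons and for expression of DBH. It measured 11.98, 11.83 and 11.61 in Bf 140 nM replicates 1, 2 and 3, and 12.13, 11.91 and 11.54 in DMSO 0.6% replicates 1, 2 and 3. The DMSO values enclosed all 3 bilirubin values, and in both groups replicate 3 was the lowest. Means were 11.81 ± 0.19 and 11.86 ± 0.30 (SD, n = 3), a difference of -0.05 (SE 0.17) and a ratio of 0.966 with a 95% confidence interval of 0.729 to 1.28.

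ISL1 is a LIM-homeodomain factor of sympathetic and motor neuron development. It measured 12.44, 11.87 and 12.75 in Bf 140 nM replicates 1, 2 and 3, and 12.49, 12.06 and 12.86 in DMSO 0.6%. Replicate 2 was the lowest and replicate 3 the highest in both groups, and the bilirubin array was the lower in each of the 3 pairs, by -0.05, -0.19 and -0.11. Means were 12.36 ± 0.45 and 12.47 ± 0.40 (SD, n = 3), a difference of -0.12 (SE 0.27) that was smaller than the spread within either group. With the replicate number as a block, the 95% confidence interval of that difference narrowed from -0.75 to 0.51 to -0.36 to 0.13 and still held 0. Over all probe sets, 4.7% were lower in all 3 pairs.

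The helix-loop-helix factor HAND1 is best known from heart and placenta and also takes part in sympathetic neuron development. It measured 9.72, 9.48 and 9.46 in Bf 140 nM and 10.01, 9.44 and 9.10 in DMSO 0.6%, in the order of replicates 1, 2 and 3. The control arrays spanned a wider range than the treated ones, at both ends. Means were 9.55 ± 0.14 and 9.52 ± 0.46 (SD, n = 3), a difference of 0.04 (SE 0.22). Single arrays set its direction: the difference was 0.29 without DMSO 0.6% replicate 1 and -0.17 without DMSO 0.6% replicate 3, and it also fell below 0 without Bf 140 nM replicate 1 (-0.05) or DMSO 0.6% replicate 2 (-0.0041).

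HAND2, which sympathetic precursors need to become noradrenergic, measured 7.83, 7.81 and 7.69 in Bf 140 nM and 7.93, 7.82 and 7.50 in DMSO 0.6%. The control arrays again held both the highest and the lowest value. Means were 7.78 ± 0.08 and 7.75 ± 0.22 (SD, n = 3), a difference of 0.03 (SE 0.13) and a ratio of 1.02 with a 95% confidence interval of 0.823 to 1.27. A low probe set understates any change, so the interval for HAND2 is less informative than those of the brighter factors.

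Of the zinc finger factors, GATA2 acts upstream of noradrenergic genes in sympathetic precursors as well as in blood stem cells. Its brightest probe set, 209710_at, measured 12.16, 12.04 and 12.22 in Bf 140 nM and 12.19, 12.21 and 11.82 in DMSO 0.6%. DMSO 0.6% replicate 3 was the lowest array, and the other 5 lay between 12.04 and 12.22. The difference was 0.07 (SE 0.13). Its other probe sets, 210358_x_at and 207954_at, differed by -0.04 and -0.09 (SE 0.11 and 0.10), so the probe sets of GATA2 did not share a direction.

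GATA3, which sustains the survival and noradrenergic traits of sympathetic neurons and also directs T-cell fate, had the highest values of the 7 factors. Probe set 209604_s_at measured 13.11, 13.11 and 13.54 in Bf 140 nM and 13.03, 13.10 and 13.48 in DMSO 0.6%. Replicate 3 was the highest in both groups, and the bilirubin array was the higher in each of the 3 pairs, by 0.07, 0.0082 and 0.07, where 8.96% of all probe sets were higher in all 3. Means were 13.25 ± 0.25 and 13.20 ± 0.24 (SD, n = 3), a difference of 0.05 (SE 0.17) and a ratio of 1.03 with a 95% confidence interval of 0.784 to 1.37. The dimmer probe sets 209602_s_at and 209603_at differed by 0.03 and -0.07 (SE 0.21 and 0.25) and did not repeat that direction in every pair.

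TBX2, which restrains cell cycle inhibitors in several tumours, measured 10.83, 10.61 and 10.72 in Bf 140 nM and 10.91, 10.67 and 10.75 in DMSO 0.6% on probe set 40560_at. The bilirubin array was the lower in each pair, by -0.08, -0.06 and -0.04, and the groups overlapped. The difference was -0.06 (SE 0.11), with a ratio of 0.961 and a 95% confidence interval of 0.804 to 1.15. Probe sets 213417_at and 205993_s_at differed by -0.06 and -0.08, and the dimmest, 221977_at, by 0.06 in the other direction. The SE of these 3 differences was 0.14, 0.24 and 0.13.

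**Figure D3:**
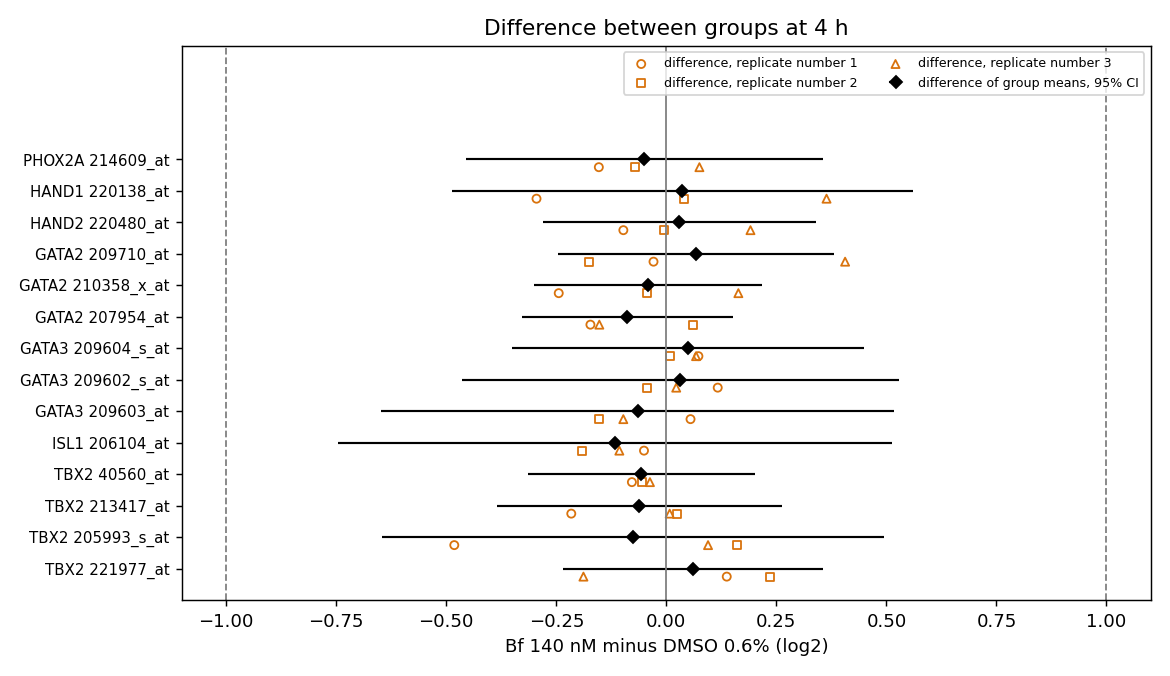
Difference of Bf 140 nM minus DMSO 0.6% on the log2 scale (x axis) for all 14 probe sets, as the difference of group means with its 95% confidence interval (black) and as the difference between arrays of the same replicate number (orange, n = 3 per group). Every interval holds 0 and lies inside the dashed lines at a 2-fold change.

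For several factors the range of the pair means was wider than the difference between treatments. These measures are unlike, because a range over 3 means tends to exceed a single difference. Over all probe sets the median range of pair means was 0.22, and over those of the factors it was 0.38. The numbers pair the arrays: deviations from the group means correlated at 0.60, 0.23 and 0.57 within the 3 pairs. An F-test of the replicate number beside the treatment by limma, added after the values had been seen, passed an adjusted p of 0.10 for 2434 of 22215 probe sets (11.0%) and for 4 of the 14. Among probe sets above the median probe set the share was 17.4%. By the brightest probe set of each gene it passed for ISL1 alone of the 7 factors, against 8.79% of all genes. HAND1, GATA3 and PHOX2A narrowly missed the threshold, with adjusted p of 0.114, 0.116 and 0.130 (limma). HAND1 passed with median centring and PHOX2A with quantile normalization. Whether the factors differ between replicate numbers as a group was not tested. The labels do not say what the replicate number stands for in the experiment.

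ISL1 had pair means of 12.46, 11.97 and 12.81 for replicate numbers 1, 2 and 3, a 1.79-fold range (adjusted p = 0.0141, limma). The bilirubin and control arrays of a number lay closer to each other than to those of any other number. ISL1 passed the test under each of the 10 alternatives run, with an adjusted p between 0.00024 and 0.0484. Its range of pair means was wider than that of 96.2% of all probe sets.

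GATA3 was highest at replicate number 3 on all 3 of its probe sets. Pair means were 10.23, 10.43 and 10.98 on 209603_at (1.67-fold, adjusted p = 0.0209, limma) and 11.28, 11.51 and 11.91 on 209602_s_at (1.55-fold, adjusted p = 0.0424). On the brightest, 209604_s_at, they were 13.07, 13.11 and 13.51 (1.36-fold, adjusted p = 0.116), which missed the threshold. Without Bf 140 nM replicate 1 the call on 209602_s_at was lost (adjusted p = 0.258). Without DMSO 0.6% replicate 1 no GATA3 probe set passed, with adjusted p of 0.179 or more, and once the beta-actin 3' to 5' difference entered the fit none did either, with adjusted p of 0.304 or more. TBX2 passed on 205993_s_at, with pair means of 9.12, 9.10 and 8.53 (adjusted p = 0.0851, limma), but not on 40560_at (adjusted p = 0.641). Without DMSO 0.6% replicate 3 the calls of ISL1 and of both GATA3 probe sets held, and that of TBX2 was lost (adjusted p = 0.242). The TBX2 call was also lost under 4 of the other alternatives: with the beta-actin covariate (0.717), with quantile normalization (0.135), without Bf 140 nM replicate 2 (0.117) and without DMSO 0.6% replicate 1 (0.307). The covariate fit and the fits without 1 array leave few residual degrees of freedom, and the covariate partly follows the replicate number. Why a call was lost in them was not tested.

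Replicate number 3 held the highest pair mean for 6 of the 14 probe sets and the lowest for 6, against 31.8% and 46.9% of all probe sets. The high ones were those of ISL1, GATA3 and the dimmer probe sets of GATA2. The low ones were PHOX2A, HAND1, HAND2, the brightest of GATA2 and a pair of TBX2. Along with replicate number 3 went the highest beta-actin difference of each group, 0.885 in Bf 140 nM and 2.21 in DMSO 0.6%. COL3A1, a fibrillar collagen of mesenchymal cells, had pair means of 11.00, 10.26 and 9.52, lowest at replicate number 3 (adjusted p = 0.0021, limma). It was the single one of 10 measured mesenchymal or Schwann-like markers to pass. The mean log2 level of that list, which includes COL3A1, ran from 8.93 to 9.07 in Bf 140 nM and from 8.94 to 9.16 in DMSO 0.6%. It was lowest at replicate 3 in each group. The median percentile of the list was instead highest at replicate 3, at 60.7 in Bf 140 nM and 66.6 in DMSO 0.6%. By pair means, 5 of the 10 markers were lowest at replicate number 3 and 3 were highest there, so the markers did not move as a set. The part of RNA quality and of other cells in the differences between replicate numbers was not tested beyond the covariate.

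**Figure D4:**
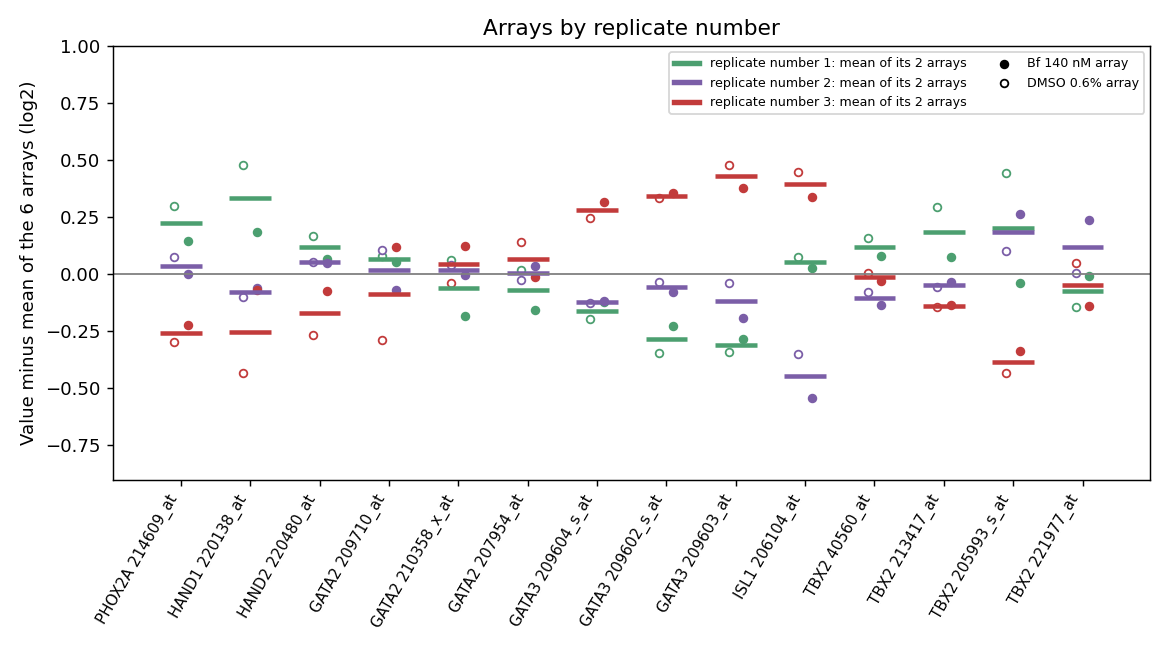
Value of each array minus the mean of the 6 arrays on the log2 scale (y axis) for the 14 probe sets, coloured by replicate number, with Bf 140 nM arrays as filled and DMSO 0.6% arrays as open circles and a bar at the mean of each pair. Both arrays of replicate number 3 are the highest for the GATA3 probe sets and ISL1, and both of replicate number 2 are the lowest for ISL1.

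The other genes of the noradrenergic programme were counted by their brightest probe set. None of 24 measured partner factors and none of 20 target genes passed the comparison of treatments. Partner factors lay above 0 in 15 cases and below in 9, with a median of 0.03, and target genes in 14 and 6, with a median of 0.04. The median over all genes was 0.03, with 7621 of 11963 above 0. TBX3, a T-box relative of TBX2, differed by 0.22 (SE 0.14) and TCF4, a helix-loop-helix partner of the HAND factors, by -0.27 (SE 0.25). TCF4 was lower with bilirubin in each of the 3 pairs, as were 4.7% of all probe sets. With the replicate number as a block its unadjusted 95% confidence interval was -0.52 to -0.02. No probe set passed the adjusted threshold in that fit. MYCN, the driver oncogene of many neuroblastomas, differed by 0.08 (SE 0.10), DDC, which makes dopamine, by 0.20 (SE 0.16), and DBH by 0.14 (SE 0.19). None of 17 core factors of the mesenchymal state passed either, with a median of -0.01. Nor did any of 10 measured mesenchymal or Schwann-like markers, of which 3 lay above 0 and 7 below, with a median of -0.03. Among them COL1A1, a fibrillar collagen, differed by -0.26 (SE 0.13). The groups did not overlap for 1 of the 10, S100B, at -0.07 (SE 0.09), against 2.67% of all genes.

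In the test of the replicate number, 6 of 24 partner factors and 5 of 20 target genes passed, against 8.79% of all genes and 17.4% of the probe sets above the median probe set. Both lists were bright, with median percentiles of 75.9 and 95.9. The partner factors were KLF7, DACH1, TCF4, TFAP2B, SATB1 and MEIS1, with ranges of pair means from 0.56 for MEIS1 to 1.45 for KLF7 on the log2 scale. The target genes were GAP43, a growth cone protein, SLC6A2, the noradrenaline transporter, SLC18A2, CYB561, a vesicle cytochrome, and CHGA, a protein of secretory granules. Of the 17 mesenchymal core factors 1 passed, SOX9, and of the 17 related factors outside the core none did.

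Across the 6 arrays PHOX2A, HAND1 and HAND2 ran together, with Pearson correlations of 0.890 for PHOX2A and HAND1, 0.937 for PHOX2A and HAND2 and 0.883 for HAND1 and HAND2, whereas PHOX2A and GATA3 ran opposite (-0.923). The 3 probe sets of GATA3 correlated at 0.954 to 0.981. These are descriptions over 6 arrays that share their normalization and their replicate numbers. The genes most like ISL1 were RPS12 (0.995), TFAP2B (0.995) and CUTA (0.994). TFAP2B, itself a partner factor of sympathetic development, measured 11.88, 11.42 and 12.14 in Bf 140 nM and 12.00, 11.59 and 12.21 in DMSO 0.6%, with replicate 2 lowest and replicate 3 highest in both groups, as for ISL1. The genes most like PHOX2A were APLP2, GAS7 and AP2B1 (0.993 to 0.996), those most like HAND1 were DLST, TBC1D9B and ZNF335 (0.990 to 0.997), and those most like HAND2 were MAGED2, MON1B and IDS. For GATA2 they were BAD, ARF4 and RPS9, for GATA3 PAX5, TOP1 and RRAGD, and for TBX2 RGS4, EMD and EIF4B. With so few arrays high values are common: of at least 9946 probe sets compared with each factor, 4.45% exceeded 0.9 with ISL1 and 10.4% with HAND2, against 0.402% with TBX2.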

How the data were processed

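Total RNA of SH-SY5Y cells, 3 replicates per treatment, was hybridized on 6 arrays. The authors computed intensities with the Affymetrix operating software and normalized them with justvsn of the vsn package in R 2.5.0. The deposited values were taken to be on a generalised log2 scale per probe set, which compresses differences of dim probe sets. The base of 2 was inferred from the highest value, 15.18, and all ratios and folds rest on it. How probes were summarised, and whether other time points were normalized together with these, was not stated. Of 22277 probe sets, 62 control probe sets were left out and 22215 tested, of which 19064 had 1 gene symbol, 1043 several and 2108 none. Groups and replicate numbers came from the sample titles. All probe sets entered 1 unpaired fit with limma 3.58.1 in R 4.3.3, two-sided, with Benjamini-Hochberg adjustment over all of them and a threshold of 0.10. Percentiles were taken among the tested probe sets of an array. No depth applies to arrays, and 3 per group limit the precision.

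Within each pair of arrays with the same replicate number, deviations from the group means correlated above 0.1 in every pair, so the numbers were taken as pairs and used as a block in an alternative. The fit was checked on simulated data. The 7 factors and the gene lists were chosen with earlier results of these data known, and the F-test of the replicate number was added after the values had been seen. All 7 factors are named. Of the other lists, no gene passed the comparison of treatments, and only some of those with the lowest unadjusted p were named. PBX3, ELAVL4 and LUM were left out of the results although genes of their lists with a higher p were named. The same holds for MEOX2, SMAD3, BHLHE41 and SNAI2 of the mesenchymal core factors. It also holds for LHX1, TBX19, TAL1 and GATA4 of the related factors outside the core. MYCN, TH and DBH were named too, with the related factor of the highest percentile and, for each factor, the 3 genes with the highest correlation. Genes past the replicate-number test are named too. VIM, NOTCH2 and the positions of SLC18A1 and SLC18A2 were singled out after their values had been seen. Several partner and family factors are not analysed here. Alternatives were quantile normalization, median centring, a filter on dim probe sets, the median over probe sets, the beta-actin difference as a covariate, thresholds of 0.05 and 0.20, the replicate block and leaving out each array.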

Additional observations from a re-analysis of the deposited data

How the results depend on the processing

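No probe set passed the comparison of treatments in any alternative run, including the replicate block, where 0.414% had an unadjusted p under 0.05, and thresholds of 0.05 and 0.20. The count of factors above the array median was 6 with quantile normalization, as the median over probe sets and without each array, the alternatives in which it was recomputed. Directions of single factors did not hold. HAND1 turned to -0.0311 with quantile normalization and -0.0774 with the beta-actin covariate, HAND2 to -0.0029 with median centring and -0.0362 with the covariate, and GATA2 to -0.0417 as the median over its probe sets. Leaving out 1 array at a time gave -0.21 to 0.0873 for PHOX2A, -0.17 to 0.29 for HAND1, -0.10 to 0.12 for HAND2, -0.0596 to 0.14 for GATA2, -0.10 to 0.19 for GATA3, -0.32 to 0.12 for ISL1 and -0.11 to 0.0085 for TBX2. These fits were unpaired, so each left 1 array without the array of its number. Median centring moved the median of all probe sets by 0.03. Probe sets that differed between replicate numbers came to 3851 with quantile normalization, 1237 with the beta-actin covariate, 3631 (16.3%) with median centring and 1259 to 4381 without 1 array, the lowest without DMSO 0.6% replicate 1 and the highest without Bf 140 nM replicate 3. Of the 14 probe sets of the factors, 1 passed with the covariate, 6 with median centring and 1 to 6 without 1 array. The causes were not tested.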
